A study of Mus musculus with 4 samples.

Results

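The Gpr137 family comprises the mouse genes *Gpr137*, *Gpr137b* and *Gpr137c* and the pseudogene *Gpr137b-ps*, 4 members in all, and their transcript levels were compared in embryonic facial tissue of *Smchd1* wild-type and *MommeD43* mice. The members were chosen by name, and the family was selected on an earlier reading of the same WT and MD43 values, in which *Gpr137b* was far lower in MD43. The values of *Gpr137b* below are therefore a description and carry no test. Of the 33708 genes with a row in the expression table, 3 are members. The level of *Gpr137b-ps* was not analysed here, because no row of the table used carries its name.

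The tissue was the frontonasal prominence (FNP), the bud that forms the forehead and nose, taken from FVB/NJ embryos at E10.5 of gestation with 29 somites. The WT group held 2 embryos, 1 female and 1 male. The MD43 group held 2 males homozygous for *MommeD43*, an ENU-induced missense allele present in every cell of the animal. It substitutes an amino acid that lies in the extended ATPase domain of SMCHD1. WT replicate 2 and MD43 replicate 2 had the same mother. The table gives a single merged log2 RPKM value per genotype, the log2 of reads scaled to transcript length and sequencing depth, so no spread between embryos could be computed, and sex and genotype cannot be told apart in it.

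GPR137 proteins cross the membrane several times and sit in the lysosome, the compartment in which cells break down and recycle material. The lysosomal surface also carries the Rag GTPases, which recruit the growth-controlling kinase complex mTORC1 when amino acids are plentiful, and GPR137B binds and regulates the Rag GTPase RagA. GPR137B is best known from macrophages, osteoclasts and kidney. SMCHD1 is a chromatin protein needed for silencing of the inactive X chromosome, imprinted clusters and some clustered genes.

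*Gpr137b* and its pseudogene lie on the same strand of the same chromosome and are almost identical in their coding parts, which matters for how a short read can be assigned. *Gpr137b* (ENSMUSG00000021306) spans chr13:13357620-13394014 on the minus strand of GRCm38. *Gpr137b-ps* (ENSMUSG00000097715) is annotated as a transcribed unprocessed pseudogene at chr13:12615057-12650388, also on the minus strand, 707232 bases away. In an alignment of the coding part of the transcript Gpr137b-201 with Gpr137b-ps-203, 1150 of 1155 aligned bases were identical. The 5 differences were C621G, A697G, C819T, C894T and A1064G, with the *Gpr137b* base first and positions counted from the A of its start codon. A single extra base in the pseudogene follows coding base 102. Read in the frame of *Gpr137b*, the pseudogene copy reached a stop after 183 codons, against 385 codons in *Gpr137b*. These differences are those of the reference sequence, and whether the FVB/NJ embryos carry them was not checked.

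The stretches around the extra base are shown because they hold the difference that shifts the reading frame. They are given 5′ to 3′ on the minus strand from GENCODE M21 transcripts, at chr13:13393368-13393415 for *Gpr137b* and chr13:12650160-12650208 for *Gpr137b-ps*, and the capital marks the extra base.
Gpr137b-201: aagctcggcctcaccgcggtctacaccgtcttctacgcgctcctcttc
Gpr137b-ps-203: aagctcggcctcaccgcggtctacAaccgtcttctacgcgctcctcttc

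The stretches around the first pair of substitutions, C621G and A697G, show how far a read has to reach to tell the reference copies apart. They lie on the minus strand within chr13:13365117-13367634 and chr13:12621429-12623914, cross an intron that is left out, and carry the differing bases in capitals.
Gpr137b-201: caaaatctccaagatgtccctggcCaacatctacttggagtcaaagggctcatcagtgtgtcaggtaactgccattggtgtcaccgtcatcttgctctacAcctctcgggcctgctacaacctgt
Gpr137b-ps-203: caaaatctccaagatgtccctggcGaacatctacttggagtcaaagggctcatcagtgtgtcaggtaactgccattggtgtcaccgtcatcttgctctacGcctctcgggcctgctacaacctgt

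The last substitution, A1064G, is shown because it lies nearest to the end of the coding sequence. The stretches lie on the minus strand within chr13:13359382-13361304 and chr13:12615808-12617731, and also leave out an intron.
Gpr137b-201: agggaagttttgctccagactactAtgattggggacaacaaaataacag
Gpr137b-ps-203: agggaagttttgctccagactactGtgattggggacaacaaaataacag

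The longest run without a difference was 518 coding bases, while a read was 75 bases long. Of the 1155 windows of 75 bases whose middle base lies in the coding part of Gpr137b-201, 696 (60.3%) occurred letter for letter in a transcript of *Gpr137b-ps*. Of the windows centred after the coding part, 137 of 1658 (8.26%) were shared, and of those centred before it 0 of 84. Over all annotated transcripts of *Gpr137b*, 1103 of 5157 windows (21.4%) were shared with the pseudogene and none with another gene of the annotation. A read from a shared window cannot be assigned to either copy from its letters, and how the authors' counting treated such reads is not given in the sources used here. Windows were compared with annotated transcripts alone, while the reads were mapped to the genome, so unannotated sequence of the pseudogene was not searched. The level of *Gpr137b* is uncertain at least to the extent of the shared windows. The family members themselves are far less alike: aligned coding bases were 64.9% identical between *Gpr137b* and *Gpr137*, 64.4% between *Gpr137b* and *Gpr137c* and 59.8% between *Gpr137* and *Gpr137c*, and they shared no 75-base window.

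**Figure D1:**
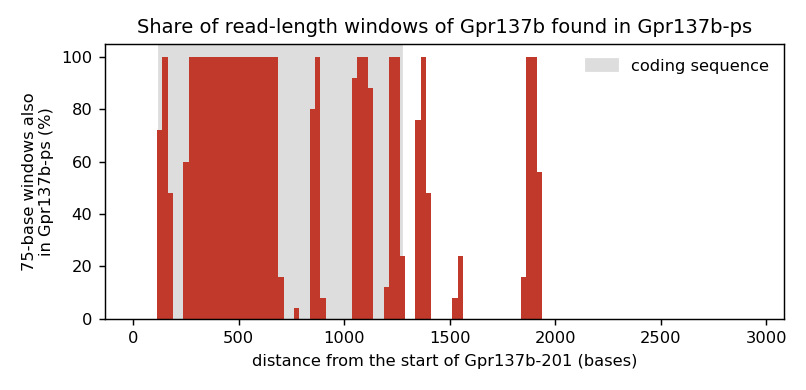
Share of 75-base windows of the transcript Gpr137b-201 that also occur in Gpr137b-ps (y axis, percent) against the distance from the transcript start (x axis, bases, bins of 25), with the coding sequence shaded. Shared windows make up 60.3% of those centred in the coding part and 8.26% of those centred after it, with gaps at each difference between the copies.

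*Gpr137b* had 0.58 log2 RPKM in WT and -2.07 in MD43, which are 1.50 and 0.238 RPKM. The MD43 level was 6.30-fold lower, a log2 fold change of -2.65 ± 0.22 (counting error, 95% interval -3.08 to -2.23). The counting error is the smallest the reads allow and leaves out variation between embryos. The value rested on 121 reads in WT and 26.7 in MD43, each the geometric mean of 2 libraries. MD43 libraries were the deeper ones, and 168 reads would have been found there at the WT level.

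The reads of the single libraries are known only as their product, 14640 in WT and 714 in MD43. The most even ways to split the WT product are 120 and 122 reads or 80 and 183 reads. For MD43 they are 21 and 34 reads or 17 and 42 reads. Less even splits exist for both. Which split is the real one, and which embryo gave which count, cannot be told, and the depth of a single library is unknown, so the libraries of both genotypes were not compared.

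*Gpr137c* is the member about which least is known. It spans chr14:45219717-45282725 on the plus strand (ENSMUSG00000049092). Its level was -0.39 log2 RPKM in WT and -1.01 in MD43, or 0.765 and 0.497 RPKM, and rested on 108 and 97.3 reads. Its log2 fold change was -0.62 ± 0.14 (counting error), so the level was 1.54-fold lower in MD43. The interval of -0.90 to -0.34 lies below 0 for counting error alone. The most even split of its reads is 90 and 129 in WT and 77 and 123 in MD43.

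*Gpr137* spans chr19:6938057-6942480 on the minus strand (ENSMUSG00000024958). It had 2.54 log2 RPKM in WT and 2.65 in MD43, or 5.84 and 6.29 RPKM, from 318 and 477 reads. Its log2 fold change of 0.11 ± 0.07 (counting error) had an interval of -0.04 to 0.25, which includes no difference on counting error alone. Variation between embryos is not in that interval. *Smchd1* itself, the mutated gene, had 3.31 log2 RPKM in WT and 3.30 in MD43 from 3185 and 4390 reads. A missense allele need not change the amount of its transcript, so this level does not check the labels.

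**Figure D2:**
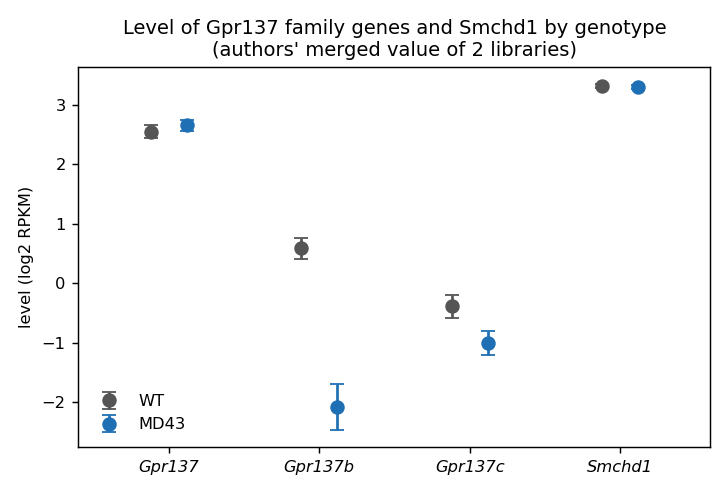
Level of each family member with a row, and of Smchd1, in log2 RPKM (y axis) for WT (grey) and MD43 (blue). Points are the authors' merged value of 2 libraries and bars are the 95% interval from counting error alone. Gpr137b lies at 0.58 in WT and -2.07 in MD43, Gpr137c at -0.39 and -1.01, and Gpr137 at 2.54 and 2.65.

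The order of the levels differed between genotypes. Lengths were those of the annotated exons merged over transcripts, 3396 bases for *Gpr137*, 5026 for *Gpr137b* and 8776 for *Gpr137c*. The order and shares given here rest on them, and the counting error leaves out reads shared with the pseudogene. *Gpr137* was highest in both genotypes, 3.89-fold above *Gpr137b* in WT and 26.4-fold above it in MD43. *Gpr137b* stood 1.96-fold above *Gpr137c* in WT, a log2 difference in level of 0.97 ± 0.14 (counting error). In MD43 it stood 2.09-fold below *Gpr137c*, a log2 difference of -1.06 ± 0.22. *Gpr137b* supplied 18.5% of the summed RPKM of the family in WT and 3.39% in MD43, while *Gpr137* supplied 72.0% and 89.5%. The summed level of the 3 members was 8.10 RPKM in WT and 7.03 in MD43. Fewer cells with *Gpr137b* and less of its RNA per cell cannot be told apart in bulk tissue.

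Against all genes, 15377 rows had at least 10 reads in a genotype, and their median log2 fold change was 0.0057 with quartiles of -0.16 and 0.15. In MD43, 380 of them (2.47%) were lower by 2-fold or more and 252 (1.64%) were higher by 2-fold or more. Of the 3 members with values, 1 passed the lower limit and 0 passed the upper. Since *Gpr137b* was chosen on this contrast, nothing is read from that count. It ranked 37th from the lowest log2 fold change. Most of the genes below it had fewer than 100 WT reads, and among the 10813 genes with at least 100 WT reads only *Barhl2*, a homeobox gene of the diencephalon (log2 fold change -5.91), and *Trpm1*, a channel gene of pigment and retinal cells (-2.88), lay lower than *Gpr137b*. These genes were named after their values were seen. The limit of 100 was set on WT reads alone, where *Gpr137b* was high and lay just above it at 121. Nothing is read from this place either. *Gpr137c* had a lower log2 fold change than 94.2% of the genes used, and *Gpr137* a higher one than 68.7%.

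**Figure D3:**
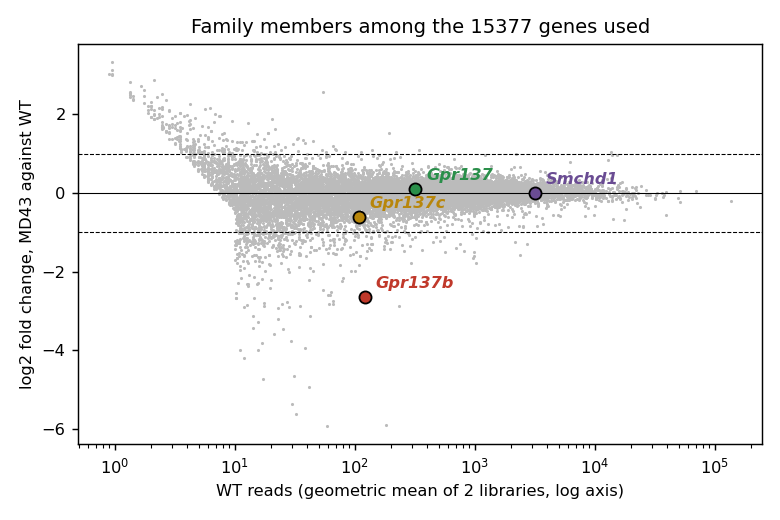
Log2 fold change of MD43 against WT (y axis) against WT reads (x axis, log scale) for the 15377 genes used (grey), with the 3 family members and Smchd1 in colour and dashed lines at 2-fold. Gpr137b lies at -2.65 with 121 WT reads, apart from most genes of its depth, Gpr137c at -0.62 and Gpr137 at 0.11.

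The closest neighbours of *Gpr137b* on its chromosome were not lower to a like extent. *Nid1*, which encodes the basement membrane protein nidogen-1 and lies 43.5 kb away, had a log2 fold change of -0.15 ± 0.05 (counting error) on 806 and 1007 reads. The antisense gene *Gm48682*, 80.3 kb away, went from 6.0 reads in WT to 22.0 in MD43, with a log2 fold change of 1.40 ± 0.47. Within 500 kb of *Gpr137b* 4 genes could be used, with a median of 0.20. Of them 0 were at least 2-fold lower (2.47% over all genes used). Within 500 kb of *Gpr137b-ps* 6 genes could be used, 3 lower and 3 higher in MD43, with a median of 0.05. The 2 genes used within 100 kb were both lower (48.8% over all genes used). *Ero1lb*, an oxidase of the endoplasmic reticulum that ends 3.66 kb from the pseudogene, had a log2 fold change of -0.63 ± 0.15, and *Edaradd*, an adaptor of ectodysplasin signalling 94.6 kb away, one of -0.94 ± 0.13. The noncoding gene *Gm30239* had no reads in either genotype.

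Of the 5 genes used within 100 kb of *Gpr137c*, 5 had a lower value in MD43 (48.8% over all genes used). By 2-fold or more 0 were lower (2.47% over all genes used). With so few genes, nothing is read from these counts. *Ero1l*, the paralogue of *Ero1lb*, lies 0.362 kb beyond the end of *Gpr137c* and had a log2 fold change of -0.84 ± 0.06 (counting error). *Txndc16*, on the opposite strand and overlapping *Gpr137c*, had -0.14 ± 0.07, and it shared 85 of 9044 windows (0.94%) with *Gpr137c*. *Psmc6*, *Styx* and *Gnpnat1* had log2 fold changes of -0.03 ± 0.02, -0.16 ± 0.06 and -0.08 ± 0.07 (counting error). The intronic gene *Gm49194* had at most 1.90 reads in a genotype. Unlike the pseudogene pair, *Txndc16* and *Gm49194* overlap *Gpr137c* in position and are not copies of it. Whether the counting used strand is not stated.

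*Gpr137* lies in a dense cluster in which 15 of 17 genes within 100 kb could be used, and their log2 fold changes ran from -0.37 (*Vegfb*, a vascular growth factor) to 0.28 (*Fermt3*, an integrin activator of blood cells). Their median was 0.03, with 6 lower, 9 higher and 0 differing 2-fold. The apoptosis gene *Bad*, which overlaps *Gpr137* on the opposite strand, had 0.07 ± 0.07 (counting error), and 445 of the 4192 windows of *Gpr137* (10.6%) occur in it on the opposite strand. The other genes used were *Rps6ka4* (-0.32), *Dnajc4* (-0.25), *Fkbp2* (-0.22), *Esrra* and *Plcb3* (-0.07 each), *Trmt112* (0.00072), *Prdx5* (0.03), *Stip1* (0.08), *Trpt1* (0.10), *Ppp1r14b* (0.14) and *Nudt22* and *Ccdc88b* (0.23 each). *Catsperz* and *Kcnk4* had too few reads to be used.

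**Figure D4:**
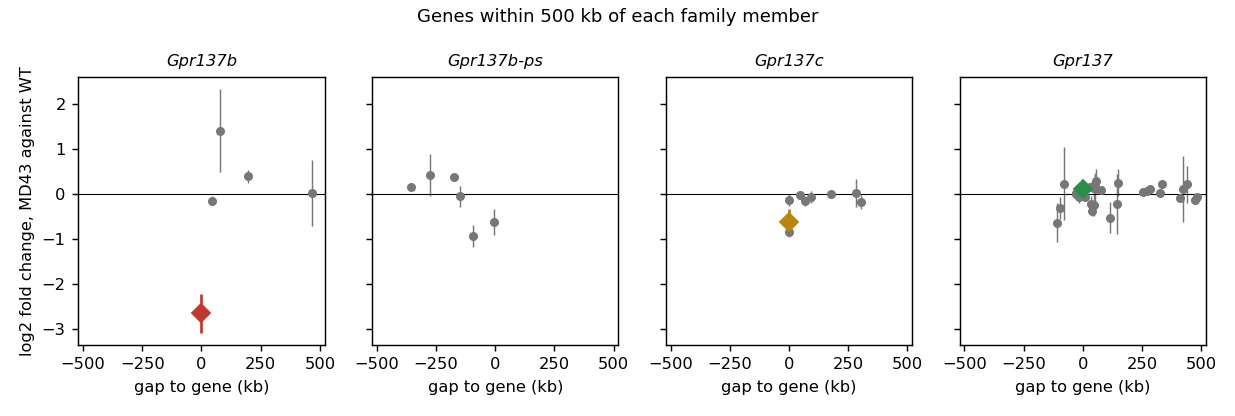
Log2 fold change of MD43 against WT (y axis) of the genes used within 500 kb of each family member, against the gap between the genes (x axis, kb), with the member as a diamond at 0. Bars are 95% intervals from counting error. Gpr137b at -2.65 lies below each gene used within 500 kb of it, which lie between -0.15 and 1.40, and Gpr137b-ps has no value.

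Genes of the lysosomal pathway in which GPR137B acts were near their WT level. Among 12 genes of the Rag GTPases, the Ragulator complex that anchors them and their partners, 9 were lower in MD43 and 3 higher, with a median of -0.11 on the log2 scale and 0 differing 2-fold. The list included *Rragd* (-0.21) and *Rragc* (-0.20), which pair with RagA or RagB, *Fnip1* (-0.29), a partner of folliculin, and *Slc38a9* (-0.20), an arginine sensor in the lysosomal membrane. Among 9 genes of mTORC1 and its Rheb and TSC switch, 4 were lower and 5 higher (median 0.17), with *Mtor* at 0.25, *Rptor* at 0.19, *Tsc2* at 0.19 and the mTOR inhibitor *Deptor* at -0.27. Among 11 genes of the GATOR and KICSTOR complexes, which pass amino acid levels to the Rag GTPases, 4 were lower and 7 higher (median 0.07). *Sec13* had 0.22, *Nprl3* 0.21 and *Seh1l* -0.17.

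Genes for other proteins of the lysosome gave a like picture. Of 18 lysosomal membrane proteins, 10 were lower and 8 higher (median -0.05), led by *Tmem192* at -0.36, *Cln3* at -0.19, *Ostm1* at -0.17 and the peptide transporter *Slc15a4* at 0.17. Of 20 lysosomal enzymes and activators, 15 were lower and 5 higher (median -0.06). The enzyme gene *Hexa* had -0.37, *Naglu* -0.24 and the cholesterol carrier gene *Npc2* -0.24. Over all genes used 48.8% were lower, 2.47% by at least 2-fold, and 1.64% were higher by at least 2-fold. In these 5 lists, from the Rag GTPases to the enzymes, 0 genes differed 2-fold in either direction. Shares that small leave few such genes to be found in lists of this size, so the 0 is not read as a trait of the lysosome.

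The 3 MiT transcription factors listed, which switch on lysosome genes and, in the case of *Mitf*, direct pigment cell development, differed more between genotypes. With 97.7 WT reads and 67.7 MD43 reads, *Mitf* had a log2 fold change of -1.01 ± 0.16 (counting error). *Tfec* had -1.02 ± 0.38 on 18.2 and 12.5 reads, and *Tfeb* 0.85 ± 0.30 on 16.4 and 41.2 reads. The low counts leave the values of *Tfec* and *Tfeb* loose.

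Many markers of the diencephalon and optic vesicle, of pigment cells and of macrophages also had lower values in MD43. Their part in the *Gpr137b* difference was not tested. Of 12 diencephalon and optic vesicle markers 11 could be used. Of these, 11 were lower in MD43 (48.8% over all genes used), 4 of them at least 2-fold (2.47% over all genes used). Those 4 were *Rax*, an eye field gene (-2.17), *Otp* and *Sim1*, hypothalamic genes (-1.57 and -1.48), and *Dbx1* (-1.40), and the list summed to 54.9 RPKM in WT and 42.5 in MD43. Its median of -0.51 became -0.24 with a pseudocount of 1 RPKM. Of 6 genes listed as pigmented retina markers only the melanosome gene *Pmel* (-1.36) and the pigment enzyme gene *Dct* (-0.96) had enough reads. They do not tell pigmented retina from other pigment cells. The list summed to 2.32 and 1.08 RPKM. *Rpe65* had no reads in either genotype, and *Tyr* had 5.66 reads in WT and none in MD43.

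Macrophage markers differed less than *Gpr137b*, and unevenly. Of the 12 genes 10 could be used, and 9 of these were lower (48.8% over all genes used) with a median of -0.33. By 2-fold or more 0 were lower (2.47% over all genes used). With a pseudocount of 1 RPKM the median was -0.03. The complement gene *C1qb* had -0.89, *Tyrobp* -0.81, *Ptprc* -0.70 and *Cx3cr1* -0.57, on at most 33.5 reads each. The other 6 ran from -0.46 to 0.32, and *Csf1r*, a macrophage growth factor receptor gene named after its value was seen, had -0.03 on 231 and 314 reads. The list summed to 11.2 RPKM in WT and 8.60 in MD43. Of 5 osteoclast markers the fusion genes *Dcstamp* and *Ocstamp* were at the floor of 3 reads or fewer in both genotypes, while the protease gene *Ctsk* had 1.66 on 4.47 and 19.6 reads, *Acp5* 0.64 and *Calcr* 0.26. This list summed to 2.39 RPKM in WT and 3.89 in MD43.

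The markers that define the labelled tissue were present in both genotypes. Facial mesenchyme markers summed to 162 RPKM in each, with 5 of 10 lower, a median of -0.08, and *Twist1* at -0.39, *Pax7* at 0.39 and *Pdgfra* at -0.33. Telencephalon markers, from the forebrain that lies under the FNP, summed to 122 RPKM in WT and 149 in MD43. Of these 6 genes 5 were higher, such as *Emx1* (0.54), *Lhx2* (0.49) and *Emx2* (0.30), and *Neurog2* was lower (-1.06). Surface ectoderm markers were higher in 8 of 9 genes (median 0.61), with *Cldn6* at 0.87, *Cdh1* at 0.73, *Krt8* at 0.70 and *Grhl2* at 0.68, and summed to 128 and 196 RPKM. Red blood cell markers were higher in 6 of 6 genes (median 0.91), with *Slc4a1* at 1.52, *Hbb-bh1* at 1.04, *Epb42* at 0.98 and *Hbb-y* at 0.84, and summed to 3057 and 5815 RPKM. Of 5 endothelial markers 4 were lower, with a median of -0.05, *Kdr* at -0.33, *Pecam1* at -0.17, *Emcn* at -0.05 and *Tek* at 0.15, and the list summed to 7.91 and 7.39 RPKM. For comparison, 48.8% of all genes used were lower in MD43.

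**Figure D5:**
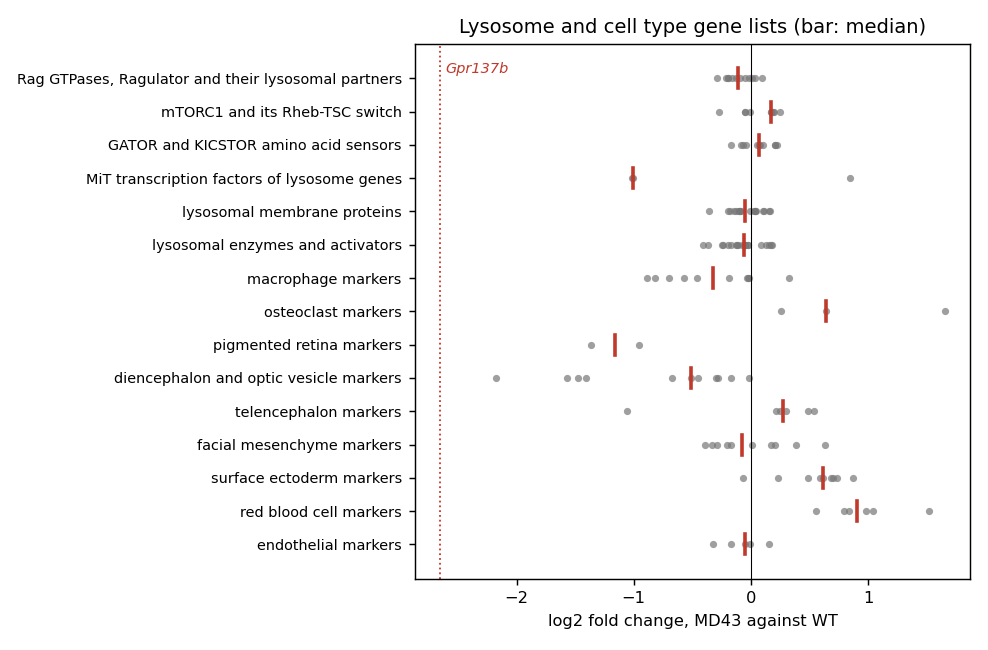
Log2 fold change of MD43 against WT (x axis) of each gene used in the 6 lists of the lysosome and the 9 lists of cell types (rows), with a bar at the median and a dotted line at Gpr137b. The medians of the lysosomal lists other than the MiT factors lie between -0.11 and 0.17, and that of the diencephalon and optic vesicle markers at -0.51. No gene plotted lies as low as Gpr137b at -2.65, which was chosen for its low value. Tyr, at -3.13, had too few reads to be plotted.

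The 5 genes nearest to *Gpr137b* in their WT and MD43 log2 RPKM values, over 2 genotype values each, were the noncoding genes *Gm28050* (distance 0.12) and *2700046A07Rik* (0.13), the ventral neural tube transcription factor gene *Nkx2-2* (0.40), *Ndufa4l2* (0.50) and *Cebpb* (0.51). Their log2 fold changes were -2.82, -2.48, -2.83, -2.92 and -1.94. Their reads lay between 23.0 and 61.2 in WT and between 4.24 and 13.7 in MD43, fewer than those of *Gpr137b* in each genotype, and each lies on another chromosome than *Gpr137b*. Likeness over 2 values says little, since any gene of similar level and fold change shares it.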

How the data were processed

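The authors trimmed 75-bp single-end reads of stranded poly(A)-selected libraries, made from 100 ng of RNA, with Trim Galore 0.4.4, mapped them with HISAT2 2.0.5 to GRCm38 and quantified them in SeqMonk. The deposited values are log2 RPKM, which the authors scaled to depth and transcript length and merged by genotype. The authors' FDR, fold change and mean columns were not used. The members, gene lists and named genes (the members, *Smchd1*, genes within 100 kb, up to 4 per list, and the 5 nearest to *Gpr137b*) were chosen with earlier results of these data known. Some named list genes are not reported here.

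Rows were joined to GENCODE M21 on name and position (33101 of 33708). They span 19 chromosomes, and the paper excluded the sex chromosomes from its FNP comparison. X-linked genes are therefore taken to be absent from the rows and the gene lists. The commonest difference, -0.48, shared by 12862 rows, was taken as that of genes without reads, counted as 0.9 reads per library. The square of a value relative to it is the product of the reads of the 2 libraries. Between 100 and 1000, 99.7% of WT and 99.8% of MD43 products were whole within 0.02. Implied depth was 16055882 (WT) and 22328791 (MD43) reads, the geometric mean of the libraries. The rows used had 10 or more reads in a genotype. Counting errors are lower limits. Shared windows were counted with Python 3.11.15 and Biopython 1.88 on annotated transcripts, on both strands. A planned edgeR test on counts could not be run, since the table holds merged values, and no p-value was computed. Alternatives were centring on the median, pseudocounts (0.1 and 1 RPKM), a quadratic correction for GC content and exon length, other filters, a 4-fold limit and other windows.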

Additional observations from a re-analysis of the deposited data

How the results depend on the processing

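Of 65 alternative values 54 stayed within the 95% interval of the counting error, or within 1.5 times for counts. For a list's median, the interval was that of its middle counting error. A change of sign was looked for only in differences of 2-fold or more: *Gpr137b* and the medians of the MiT factors and pigmented retina markers. There 0 changed sign, which says little, since a pseudocount cannot change the sign of a gene and centring moved values little. With a pseudocount of 1 RPKM, which by construction shrinks low genes, the log2 fold change was -1.01 for *Gpr137b*, -0.24 for *Gpr137c* and, as medians, -0.13 for the MiT factors and -0.48 for the pigmented retina markers. Medians of the macrophage markers (-0.33 to -0.03) and the diencephalon markers (-0.51 to -0.24) also shrank, within the wide intervals of their low counts. With 0.1 RPKM it was -2.24 for *Gpr137b*. Centring and the correction for GC content and exon length gave -2.66 and -2.62 for *Gpr137b*, -0.63 and -0.53 for *Gpr137c* and 0.10 and 0.07 for *Gpr137*. Genes at least 2-fold lower numbered 1486 with no filter and 119 with at least 50 reads, and 58 were at least 4-fold lower. Genes at least 2-fold higher numbered 650 and 39, and 44 were at least 4-fold higher. The median of genes near *Gpr137b* was 0.38 within 250 kb, 0.20 within 500 kb and -0.075 within 1000 kb, so its sign depended on the window. No paired analysis was possible because values of single embryos were merged by genotype, and leaving out a replicate was not run for the same reason. Variation between embryos is therefore unknown for every value here.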
